A study of Mus musculus with 33 samples.

Results

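The BTG and TOB family is a group of small cytoplasmic and nuclear proteins that slow cell division. The members described here were *Btg1*, *Btg2*, *Btg3*, *Tob1* and *Tob2*, which are 5 of the 41565 named rows of the expression table. The family was taken up because *Btg2* and *Tob1* had passed a test in the preoptic area (POA) 4 months after ovariectomy (OVX) in an earlier analysis of these data. For that reason the POA values of the members are given as a description without *P* values, and members were tested only in the posterior hypothalamus (PH). The remaining relative, *Btg4*, known mainly from oocytes, lay between 20.5 and 38.2 in all 33 libraries and thus near the floor of 22.1, the value at which genes with no measurable signal sit in this table.

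Bulk RNA-seq was performed on PH and POA dissected from adult wild-type C57BL/6 female mice. Intact mice, killed in diestrus, are named sham in the sample titles and intact in another label, and 4 of their PH libraries and 5 of their POA libraries were used. The OVX groups, mice whose ovaries had been removed in adulthood, contributed 6 libraries per region 14 days after surgery and 6 per region 4 months after surgery. The 4-month mice were older than the intact mice when tissue was taken, and there was no intact group of their age, so age and time after OVX cannot be told apart. One POA library carries only the bare entry 14 in one label and was placed in the 14-day group by its title. The labels do not say whether PH and POA libraries came from the same mice. If they did, the PH tests of members are not independent of the POA values for which the family was taken up.

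All members share an N-terminal BTG domain that binds the CNOT7 and CNOT8 subunits of CCR4-NOT, the complex that shortens the poly(A) tails of mRNAs. Through this contact, and in TOB1 and TOB2 through a second contact with the poly(A)-binding protein PABPC1, the proteins speed up mRNA decay. BTG1 and BTG2 also bind the arginine methyltransferase PRMT1, TOB1 and TOB2 bind SMAD proteins, and *Btg2* is both a p53 target and an immediate early gene that neurons induce on stimulation.

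The promoters of *Btg1*, *Btg2* and *Tob1* are shown because they are the members whose windows held the CRE core TGACG, the letters read by CREB, a factor that switches on immediate early genes. The windows run from 250 bases before to 50 bases after the transcript start and belong to the Ensembl canonical transcripts of GENCODE release M39 on build GRCm39, written in the direction of transcription. Capitals mark the CRE TGACGTCA, its core TGACG, the CCAAT box and the TATA box TATAAA, each on either strand, so that CGTCA and ATTGG are the same letters on the other strand.
Btg2, chr1:134006809-134007108, minus strand: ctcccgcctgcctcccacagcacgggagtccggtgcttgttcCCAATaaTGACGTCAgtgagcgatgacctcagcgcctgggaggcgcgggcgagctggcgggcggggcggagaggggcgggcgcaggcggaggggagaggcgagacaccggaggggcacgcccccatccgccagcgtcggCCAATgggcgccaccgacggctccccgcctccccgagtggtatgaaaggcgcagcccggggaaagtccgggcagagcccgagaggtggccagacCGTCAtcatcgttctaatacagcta
Tob1, chr11:94102008-94102307, plus strand: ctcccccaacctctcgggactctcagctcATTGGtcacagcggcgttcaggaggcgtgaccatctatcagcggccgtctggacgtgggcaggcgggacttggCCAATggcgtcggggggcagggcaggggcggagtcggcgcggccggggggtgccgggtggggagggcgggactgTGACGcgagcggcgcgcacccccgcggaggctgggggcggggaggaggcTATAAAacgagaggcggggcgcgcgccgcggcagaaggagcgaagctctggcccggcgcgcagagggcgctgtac
Btg1, chr10:96452611-96452910, plus strand: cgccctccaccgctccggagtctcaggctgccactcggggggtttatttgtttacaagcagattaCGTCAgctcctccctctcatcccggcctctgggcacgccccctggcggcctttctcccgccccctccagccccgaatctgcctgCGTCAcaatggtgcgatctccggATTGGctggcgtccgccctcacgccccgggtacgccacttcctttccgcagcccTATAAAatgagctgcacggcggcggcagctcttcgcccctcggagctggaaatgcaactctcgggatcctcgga

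The full CRE TGACGTCA was found in *Btg2* alone of the 5 members, 201 bases before its start, and in 2.45% of 21757 promoters of the same length. The CRE core, which the full CRE contains, was found in 3 members and in 22.6% of promoters. The TATA box was found in *Btg1* and *Tob1*, at 24 and 25 bases before the start, and in 13.2% of promoters. A CCAAT box was found in 4 members, the exception being *Tob2*, and in 39.9% of promoters. The palindromic estrogen response element was found in no member and in 0.0506% of promoters, and its half-site GGTCA was found in *Btg2* and *Tob1* and in 39.3% of promoters. Neither the serum response element (CArG box) nor the p53 half-site was found in any member, against 1.54% and 7.89% of promoters. These are matches of letters in a short window and not measured binding.

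Most members have few exons. *Btg1*, *Btg2*, *Tob1* and *Tob2* each have 2 exons in the reference transcript and *Btg3* has 5, where the median protein-coding transcript has 7 and 16.9% have at most 2. The pentamer ATTTA, the core of AU-rich elements that mark short-lived mRNAs, occurred in the 3′ untranslated region at 3.85 per kilobase in *Tob1*, 2.70 in *Btg3*, 2.64 in *Btg1*, 2.27 in *Btg2* and 1.45 in *Tob2*. The median of 16587 such regions was 1.57 per kilobase, so *Tob2* alone lay below it.

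The deposited values summed to between 44.6 and 73.1 M units per library (median 50.3 M). These are normalized sums and not read depths, and the depth behind a single value was unknown. Markers of neurons, astrocytes, oligodendrocytes and their precursors, microglia, endothelial, mural and ependymal cells were present in all 33 libraries whereas none of 5 lymphocyte markers reached 2 times the floor in every library. In the PH the surrogate variable used as a covariate (SV1, an estimate of variation that the groups do not account for) separated mainly 14-day replicate 5, and in the POA it separated the 2 batches given in the labels. Whether SV1 was technical in the PH was not tested. In bulk tissue a lower value cannot be told apart from fewer cells of a type.

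Per kilobase of transcript, after subtraction of the floor, *Tob1* had the highest values of the members in both regions. Whether the deposited values scale with transcript length is not given in the sources used here. Undivided, the PH values of *Tob1* (1569 to 2934) and *Btg1* (1127 to 2022) overlapped. Its median over the 16 PH libraries was 883 deposited units per kilobase (range 666 to 1254), and no other member exceeded 476 in any library of either region. *Btg1* followed at 324 in the PH (range 221 to 399). *Tob2* at 213 (115 to 266), *Btg2* at 180 (114 to 342) and *Btg3* at 148 (72.0 to 283) overlapped one another across PH libraries. The order of the medians was the same in the POA, at 873, 337, 207, 175 and 148.

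*Btg2* was the member with the highest 4-month values relative to both other groups. In the PH its deposited values were 508, 386, 466 and 626 in the intact libraries, 441, 447, 485, 460, 334 and 524 at 14 days, and 962, 698, 619, 820, 736 and 658 at 4 months. Every 4-month library lay above every 14-day library, and 5 of the 6 lay above every intact library, the exception being replicate 3 at 619. Intact and 14-day libraries overlapped.

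The intact PH libraries averaged 497 ± 99.9 (SD, n = 4) for *Btg2*, the 14-day libraries 449 ± 63.9 (n = 6) and the 4-month libraries 749 ± 125 (n = 6). The fitted log2 fold change was 0.58 ± 0.13 (SE) for 4 months against intact, a fold of 1.49, and 0.64 ± 0.13 for 4 months against 14 days, a fold of 1.56. Neither passed the test across all 21976 genes tested in the PH (limma, Benjamini-Hochberg adjusted *P* = 0.207 and 0.214). Without the covariate the differences of mean log2 values were 0.60 and 0.74. Taken as a single gene, these gave exact permutation *P* values of 0.00952 for 4 months against intact and 0.00216 for 4 months against 14 days (two-sided, unadjusted, 2 of 15 such tests over members and comparisons), the second being the smallest that 924 splits allow. With splits restricted to within batches the exact permutation *P* values were 0.01 and 0.005, the smallest that those designs allow. The log2 difference of 4 months from intact was 0.75 in batch 1 and 0.44 in batch 2, and that from 14 days was 0.71 and 0.77.

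Groups that do not overlap were rare among all genes. In the PH, 0.127% of the genes tested had every 4-month library above every 14-day library, and *Btg2* was the 1 member among them. No member was called, that is, none had an adjusted *P* under 0.05 in limma, in any PH comparison, where 0% of genes were called for 14 days against intact, 0.0319% for 4 months against intact and 0.0091% for 4 months against 14 days. At an unadjusted *P* under 0.05, limma gave 667 genes for 14 days against intact.

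In the POA, the region from which the family was taken up, the values of *Btg2* were 395, 467, 503, 705 and 403 in the intact libraries, 447, 378, 470, 532, 454 and 465 at 14 days, and 915, 832, 774, 879, 900 and 962 at 4 months. All 6 of the 4-month libraries lay above every intact and every 14-day library, the nearest being intact replicate 4 at 705, a separation that 0.412% of the genes tested in the POA had for 4 months against intact and 0.0703% for 4 months against 14 days. The means were 495 ± 126 (SD, n = 5), 458 ± 49.4 (n = 6) and 877 ± 66.0 (n = 6). The log2 fold change was 0.89 ± 0.11 (SE) for 4 months against intact, a fold of 1.85, and 0.95 ± 0.11 for 4 months against 14 days, a fold of 1.93. These 2 comparisons share the 4-month libraries. Within batches the 4-month libraries differed from intact by 0.96 and 0.80 on the log2 scale.

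**Figure D1:**
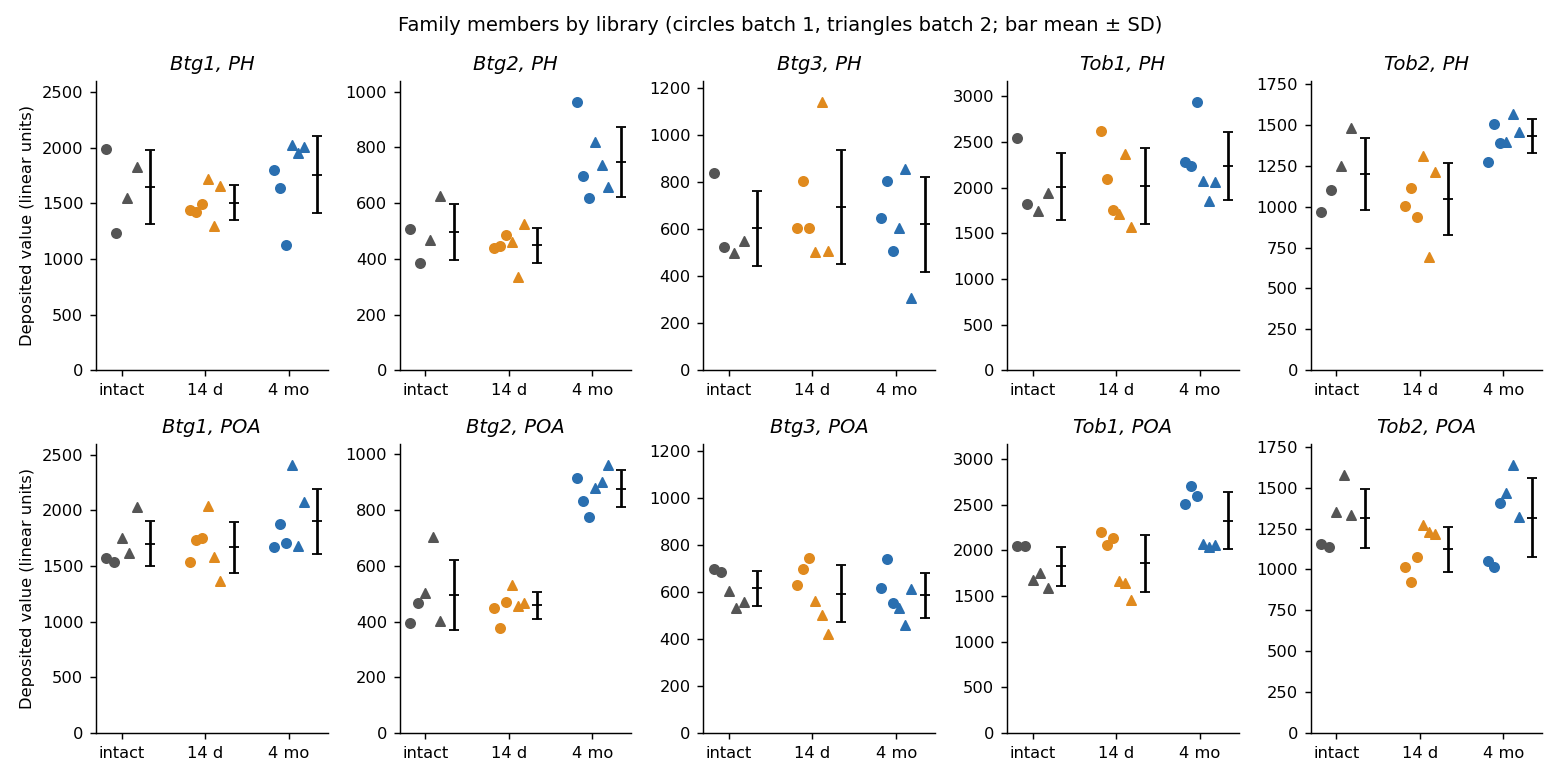
Deposited values (linear units, axes from 0) of the 5 family members in each library, with PH in the upper row and POA in the lower row, by group, circles for batch 1, triangles for batch 2 and bars for the mean ± SD. *Btg2* at 4 months sits between 619 and 962 in the PH and between 774 and 962 in the POA, above every 14-day library of the same region, whereas the groups of *Btg1* and *Btg3* overlap.

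The difference between intact and 14-day libraries was small for *Btg2* in both regions. The log2 fold change was -0.07 ± 0.14 (SE) in the PH (limma adjusted *P* = 0.99984, exact permutation *P* without the covariate 0.414) and -0.06 ± 0.11 in the POA. The interval of the PH difference ran from -0.35 to 0.22 on the log2 scale.

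*Btg1*, the closest relative of *Btg2* and a binder of PRMT1, overlapped among the groups in both regions. In the PH its values were 1986, 1231, 1548 and 1827 in the intact libraries, and ran from 1295 to 1721 (median 1468) at 14 days and from 1127 to 2022 (median 1877) at 4 months. Of the 4-month libraries, 4 lay above every 14-day library and replicate 3, at 1127, lay below all of them. The PH log2 fold change was 0.07 ± 0.14 (SE) for 4 months against intact and 0.10 ± 0.13 for 4 months against 14 days (limma adjusted *P* = 0.970 and 0.9996). The exact permutation *P* for the second comparison, on a log2 difference of 0.20 without the covariate, was 0.193. With 1 library left out it stayed above 0.05 in 11 of 12 analyses, reaching 0.333 without 4-month replicate 4. It was 0.0108 without 4-month replicate 3.

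The intact POA libraries averaged 1700 ± 201 (SD, n = 5) for *Btg1*, the 14-day libraries 1667 ± 229 (n = 6) and the 4-month libraries 1901 ± 292 (n = 6). The log2 fold changes were 0.17 ± 0.11 (SE) for 4 months against intact and 0.19 ± 0.10 for 4 months against 14 days, which share the 4-month libraries.

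*Btg3*, which acts against SRC and E2F1 signaling in cultured cells, varied more among libraries of a group than between groups. In the PH its 14-day values ran from 502 to 1138 (median 604) and its 4-month values from 306 to 854 (median 626), and the intact libraries stood at 840, 523, 497 and 549. The highest of these, 1138, was 14-day replicate 5, the library that SV1 separated. The PH log2 fold changes were -0.01 ± 0.21 (SE) for 14 days against intact, 0.05 ± 0.21 for 4 months against intact and 0.06 ± 0.20 for 4 months against 14 days (limma adjusted *P* = 0.99984, 0.983 and 0.9996). Their signs turned with the covariate, so no direction is given. POA means of *Btg3* were 614 ± 74.0 (SD, n = 5), 592 ± 122 (n = 6) and 585 ± 95.4 (n = 6) in intact mice, at 14 days and at 4 months.

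*Tob1*, the member with the highest values per kilobase, separated by batch as well as by group in the POA. Its values there were 2044, 2051, 1680, 1757 and 1592 in intact mice, 2205, 2059, 2136, 1667, 1638 and 1452 at 14 days, and 2512, 2702, 2596, 2067, 2033 and 2057 at 4 months. In each group the first libraries, which belong to batch 1, were the higher ones, and 5 of the 6 libraries at 4 months lay above every intact library of either batch. The log2 fold change was 0.28 ± 0.052 (SE) for 4 months against intact, a fold of 1.22, and 0.32 ± 0.049 for 4 months against 14 days, a fold of 1.25. Within batches the log2 difference from intact was 0.35 in batch 1 and 0.29 in batch 2.

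In the PH *Tob1* overlapped among groups. The values were 2543, 1824, 1740 and 1940 in intact mice, 2616, 2100, 1755, 1712, 2369 and 1569 at 14 days, and 2286, 2241, 2934, 2078, 1850 and 2066 at 4 months. One 4-month library, replicate 3 at 2934, lay above all others. The log2 fold change was 0.19 ± 0.11 (SE) for 4 months against intact and 0.30 ± 0.10 for 4 months against 14 days (limma adjusted *P* = 0.865 and 0.9996). The exact permutation *P* values, which use no covariate, were 0.333 and 0.303.

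*Tob2*, the paralog of *Tob1*, had its highest PH values at 4 months. The values were 965, 1103, 1247 and 1484 in intact mice, 1006, 1115, 934, 1313, 694 and 1215 at 14 days, and 1272, 1507, 1387, 1396, 1570 and 1457 at 4 months. Of the 6 libraries at 4 months, 5 lay above every 14-day library and 2 above every intact library. The lowest 14-day value, 694, was again replicate 5.

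For *Tob2* the intact PH libraries averaged 1200 ± 222 (SD, n = 4), the 14-day libraries 1046 ± 220 (n = 6) and the 4-month libraries 1432 ± 104 (n = 6). The log2 fold change was 0.24 ± 0.092 (SE) for 4 months against intact and 0.32 ± 0.088 for 4 months against 14 days (limma adjusted *P* = 0.712 and 0.798). Without the covariate the differences of mean log2 values were 0.27 for 4 months against intact and 0.48 for 4 months against 14 days. On these the exact permutation *P* was 0.00433 for 4 months against 14 days, and 0.005 within batches. For 4 months against intact it was 0.0476, and in 8 of 10 analyses that left out 1 library it rose above 0.05, to as much as 0.143 without intact replicate 1.

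In the POA *Tob2* had means of 1312 ± 179 (SD, n = 5), 1122 ± 138 (n = 6) and 1317 ± 243 (n = 6) in intact mice, at 14 days and at 4 months. The log2 fold change was -0.17 ± 0.080 (SE) for 14 days against intact, 0.06 ± 0.080 for 4 months against intact and 0.23 ± 0.075 for 4 months against 14 days. Intact and 4-month libraries overlapped, and 4 of 6 libraries at 4 months lay above every 14-day library.

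**Figure D2:**
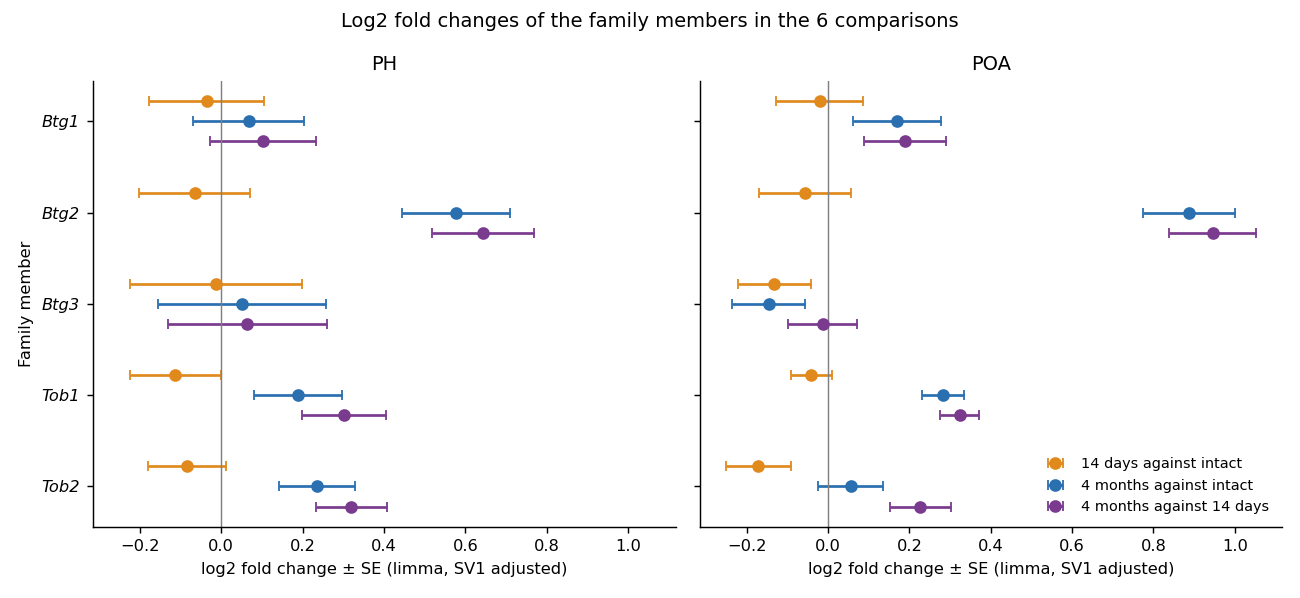
Log2 fold change (horizontal axis) of each family member (vertical axis) in the PH (left) and the POA (right), with bars for the SE from limma with SV1 as covariate and colors for the 3 comparisons. *Btg2* stands apart from the other members for 4 months against both other groups, with PH values of 0.58 and 0.64 and POA values of 0.89 and 0.95.

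In the POA 2 of 5 members, *Btg2* and *Tob1*, were called for 4 months against intact, where 0.0937% of 21346 genes were called, and the same 2 were called for 4 months against 14 days, where 0.0281% were. Nothing is read from these counts, since the family was chosen on the first of them and the second shares its libraries. *Tob1* was the called member with the smaller log2 fold change, 0.28 ± 0.052 (SE), and *Btg1*, at 0.17 ± 0.11, was the nearest by size among those not called. With each library left out in turn, *Btg2* stayed called in all 17 analyses of both comparisons, and *Tob1* in 3 of 17 for 4 months against intact and in 15 of 17 for 4 months against 14 days. Nothing is read from these leave-one-out counts either, since they reuse the libraries on which the family was chosen. No member was called for 14 days against intact, where 0.00468% of genes were called.

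No gene of the deadenylation machinery through which the family acts passed the test. Of 17 genes for CCR4-NOT, PAN2-PAN3, PARN and poly(A)-binding proteins, 0 were called by limma in any of the 6 comparisons. *Cnot7*, a direct partner of every member, had a log2 fold change of -0.20 ± 0.085 (SE) in the PH and -0.04 ± 0.049 in the POA for 4 months against intact (limma adjusted *P* = 0.769 and 0.852). *Cnot8* stood at -0.04 ± 0.067 and 0.02 ± 0.055, and *Pabpc1*, the partner of the TOB proteins, at 0.12 ± 0.076 and -0.08 ± 0.057. At an unadjusted *P* under 0.05, limma gave 1 of the 17 in the PH and 3 in the POA for 4 months against intact, where 6.07% and 8.5% of all genes passed, and 0 to 2 in the other comparisons. The list median was -0.02 in the PH and -0.07 in the POA for 4 months against intact, beside -0.01 and -0.01 over all genes tested. In the POA 3 of the 17 had a log2 fold change above 0 for 4 months against intact and 2 for 14 days against intact. Of all genes, 46.5% and 47.8% did. In the PH the same comparisons had 7 and 8 of 17 above 0, and POA 4 months against 14 days had 8.

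The other binding partners gave no calls either. Of 12 genes for PRMT1, CPEB proteins, SMADs and HOXB9, 11 were measured above the filter and 0 were called by limma in any comparison, with 0 or 1 at an unadjusted *P* under 0.05. *Prmt1* had a log2 fold change of -0.02 ± 0.086 (SE) in the PH and -0.03 ± 0.086 in the POA for 4 months against intact, *Smad4* 0.01 ± 0.094 and -0.04 ± 0.047, and *Cpeb3*, an RNA-binding protein that TOB proteins bind, 0.08 ± 0.11 and 0.08 ± 0.054.

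Immediate early genes, the class to which *Btg2* belongs, were spread widely at 4 months. Of 29 such genes, a list that leaves out *Btg2*, 2 were called for 4 months against intact in the POA, both higher, and 0 in the PH. *Dusp1*, a phosphatase that ends MAP kinase signaling, had a log2 fold change of 0.68 ± 0.091 (SE) in the POA (limma adjusted *P* = 0.00265) and 0.11 ± 0.19 in the PH (0.959). *Npas4*, a transcription factor induced by neuronal activity, had 0.74 ± 0.14 in the POA (limma adjusted *P* = 0.0428) and 0.90 ± 0.21 in the PH (0.207).

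Further immediate early genes were not called. *Fos* had a log2 fold change of 0.24 ± 0.22 (SE) in the POA and -0.13 ± 0.25 in the PH for 4 months against intact, and *Egr1* had -0.49 ± 0.17 and -0.19 ± 0.20. *Junb*, *Nr4a1* and *Ier2* stood at 0.29 ± 0.21, 0.39 ± 0.19 and 0.38 ± 0.12 in the POA, none called. In the PH they stood at 0.45 ± 0.20, 0.55 ± 0.18 and 0.26 ± 0.15, again none called. The median of the list was 0.15 in both regions, and 15 of 29 in the POA and 9 of 29 in the PH had an unadjusted *P* under 0.05 in limma, where 8.5% and 6.07% of all genes did. For 4 months against 14 days the same 2 genes were called in the POA and 0 in the PH. An unadjusted *P* under 0.05 in limma was found there for 14 of 29 in the POA and 9 of 29 in the PH. Of all genes, 5.11% and 4.1% reached it. Log2 fold changes were above 0 for 25 and 23 of the 29, and for 48.9% and 47.2% of all genes.

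**Figure D3:**
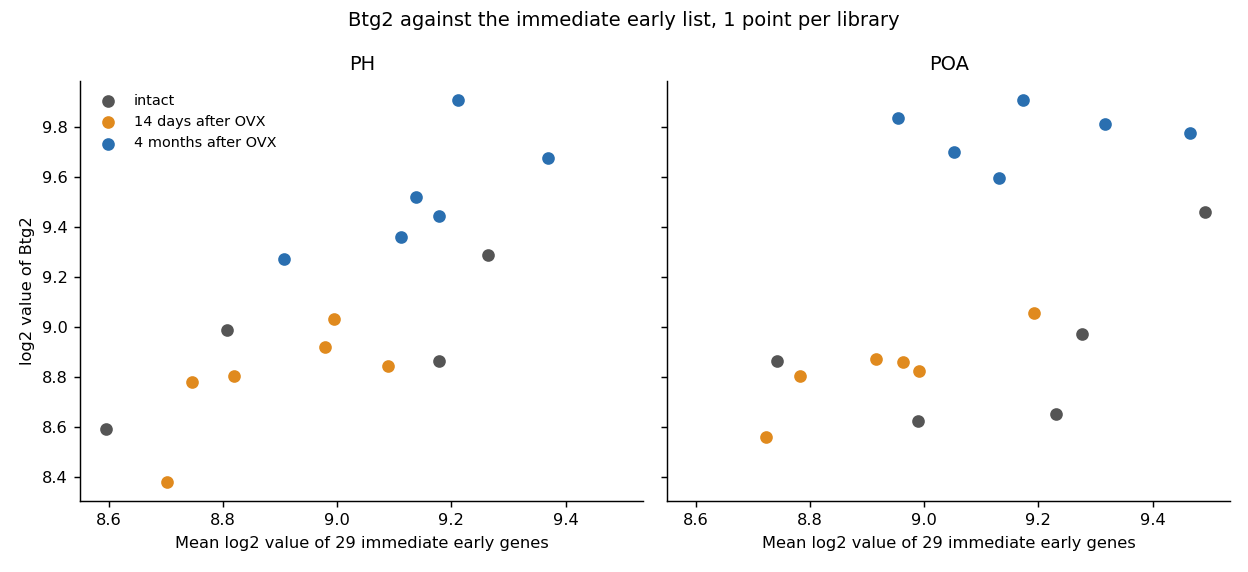
Log2 value of *Btg2* (vertical axis) against the mean log2 value of the 29 immediate early genes (horizontal axis), 1 point per library, colored by group, in the PH (left) and the POA (right). In the POA all 4-month libraries lie above all others in *Btg2*, while the list means of intact libraries (8.74 to 9.49) and 4-month libraries (8.95 to 9.47), both batches pooled, overlap.

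With both batches pooled, the mean of the immediate early list overlapped among the 3 groups of each region. In the PH it ran from 8.59 to 9.26 in intact mice, from 8.70 to 9.09 at 14 days and from 8.91 to 9.37 at 4 months on the log2 scale. In the POA the intact library with the highest *Btg2*, replicate 4, also had the highest list mean of its region, 9.49. Its *Btg2* value was below those of all 4-month POA libraries. The list mean also shifted with batch. In batch 1 of the POA it ran from 8.74 to 8.99 in intact mice, from 8.72 to 8.92 at 14 days and from 8.95 to 9.13 at 4 months, so that all 4-month libraries lay above all 14-day libraries there. In batch 2 it ran from 9.23 to 9.49, from 8.96 to 9.19 and from 9.17 to 9.47. Within either batch of the POA intact and 4-month libraries overlapped in the list mean. In batch 1 of the PH it ran from 8.59 to 8.81 in intact mice and from 8.91 to 9.21 at 4 months. All 4-month libraries thus lay above all intact libraries there, but not above all 14-day libraries, which reached 8.98. In batch 2 of the PH all 4-month libraries (9.11 to 9.37) lay above all 14-day libraries (8.70 to 9.09). They overlapped there with the intact libraries (9.18 to 9.26).

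The remaining contexts in which the family is known gave no calls. Of 19 p53 targets, 22 cell cycle genes and 13 glucocorticoid-induced genes, 0 were called by limma in any comparison. *Trp53* had a log2 fold change of -0.03 ± 0.060 (SE) in the POA and 0.10 ± 0.099 in the PH for 4 months against intact, and *Cdkn1a*, the cell cycle inhibitor that p53 induces along with *Btg2*, had -0.08 ± 0.19 and 0.03 ± 0.17. *Ccng1* stood at 0.07 ± 0.056 and -0.05 ± 0.080. Among the cell cycle genes *Ccnd1*, which BTG proteins lower in cultured cells, had -0.12 ± 0.070 and -0.04 ± 0.082, and *Mki67*, a mark of dividing cells, had -0.20 ± 0.20 and 0.08 ± 0.31. *Fkbp5* and *Sgk1*, both induced by glucocorticoids, had -0.15 ± 0.11 and -0.24 ± 0.29 in the POA. The numbers with an unadjusted *P* under 0.05 for 4 months against intact in limma were 2, 3 and 2 in the POA, where 8.5% of all genes passed, and 0, 2 and 3 in the PH, where 6.07% did.

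**Figure D4:**
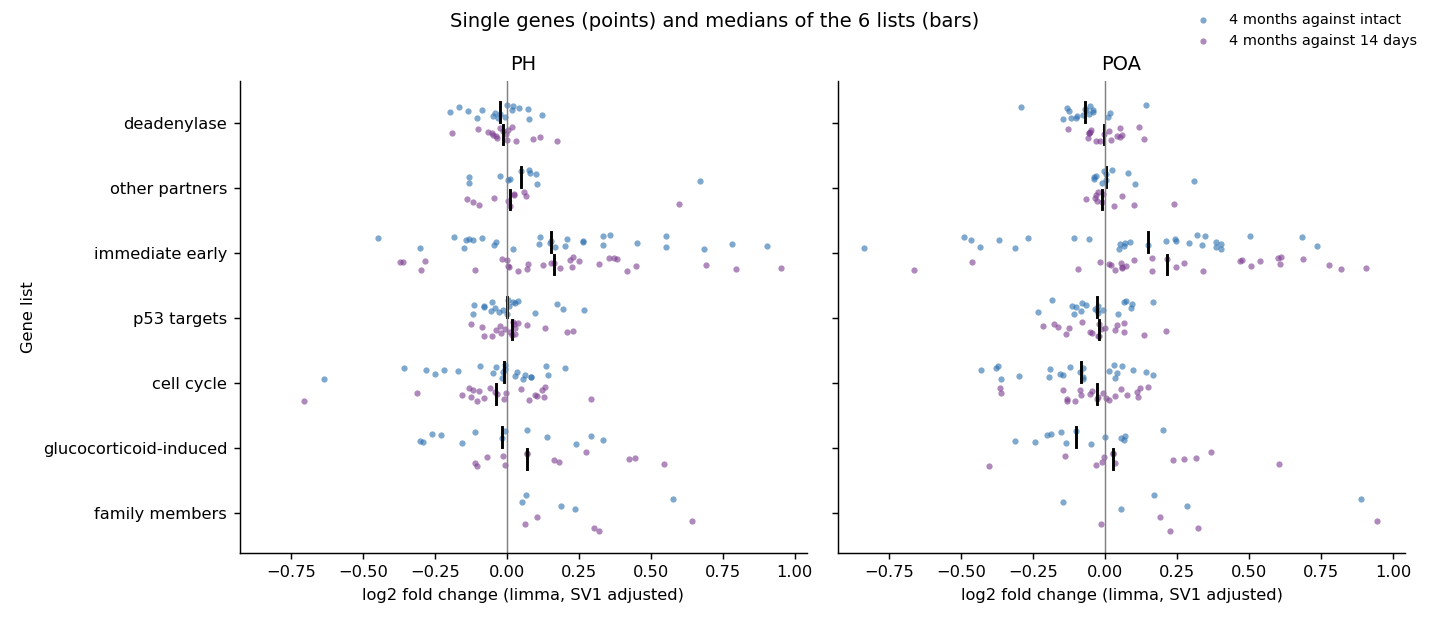
Log2 fold change (horizontal axis) of single genes (points) in 6 gene lists and the family members (vertical axis), in the PH (left) and the POA (right), for 4 months against intact and against 14 days, with bars for the medians of the lists. The deadenylase genes lie close to 0, the immediate early genes spread widest, and *Btg2* is the rightmost family point with PH values of 0.58 and 0.64 and POA values of 0.89 and 0.95.

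Markers of other cell types also differed between the groups in part. The summed value of 5 red cell genes had a median of 7375 in intact PH (range 6507 to 8426) and 19156 at 4 months (12093 to 37251), and in the POA 8057 (7050 to 16431) and 15777 (9569 to 22657). All 5 were present in every library, and 1 of them, *Alas2*, was called in the PH, at a log2 fold change of 1.37 ± 0.22 (SE, limma adjusted *P* = 0.0301). The summed value of 6 microglia markers had medians of 7536 (7179 to 8026) and 8742 (8147 to 10283) in the PH and of 8092 (7588 to 8396) and 8816 (8195 to 10095) in the POA, with *C1qa* called in the POA at 0.43 ± 0.079 (limma adjusted *P* = 0.0428). The summed value of 5 endothelial markers had medians of 6954 (6540 to 7845) in intact PH, 8322 (7403 to 9672) at 14 days and 8678 (7896 to 10890) at 4 months, and of 6982 (6707 to 8341), 7843 (6918 to 8288) and 8650 (7196 to 10014) in the POA. None of the 5 was called by limma in any comparison, and for 4 months against intact an unadjusted *P* under 0.05 was found for 3 of them in the PH and for 1 in the POA. In the POA, after the mean of each group within each batch was removed, *Btg2* had a Pearson r of -0.71 with the mean of the red cell list over 17 libraries (Spearman rho -0.54, r -0.46 without the 2 libraries farthest from the median, and r -0.35 with group means alone removed), the strongest of its list values in that region, and 0.04 over the 16 PH libraries. The part of these cell types in the *Btg2* and *Tob1* values was not tested.

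Members did not vary as 1 unit among the libraries. After the mean of each group within each batch was removed, *Btg1* and *Btg2* had a Pearson r of 0.81 over the 16 PH libraries (Spearman rho 0.80, and r 0.80 without the 2 libraries farthest from the median), but -0.20 over the 17 POA libraries. *Btg1* and *Btg3* stood at 0.68 in the POA and 0.08 in the PH. *Tob1* and *Tob2* stood at -0.51 in the PH, or -0.05 without 14-day replicate 5, and at 0.22 in the POA. The POA values depended on the removal of batch means, and the PH value of *Btg1* and *Btg2* did in part. With group means alone removed, *Btg1* and *Btg2* stood at 0.64 in the PH, and at 0.47 without the 2 farthest libraries. In the POA, with group means alone removed, *Btg1* and *Btg3* stood at 0.16 and *Tob1* and *Tob2* at -0.73. *Btg3* and *Tob1* stood there at 0.83 (0.45 with batch means removed) and *Btg3* and *Tob2* at -0.80 (-0.56). These values describe libraries that share a dissection and a normalization and carry no test.

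*Btg2* varied with the mean of the immediate early list in the PH, with a Pearson r of 0.81 over 16 libraries (rho 0.75, and r 0.76 without the 2 libraries farthest from the median). In the POA the r was 0.33 over 17 libraries, and -0.06 without the 2 farthest, but 0.57 with group means alone removed. *Btg1* had nearly the same r with the list in the PH, 0.80 (rho 0.80). In the POA *Tob2* (0.60) and *Tob1* (0.51) had a higher r with the list than *Btg2*, but 0.84 and -0.67 with group means alone removed. In the PH *Btg2* also had an r of 0.81 with the mean of 3 ependymal markers, and *Btg1* had 0.71. In the POA these were -0.06 and -0.03. The summed ependymal value overlapped between intact and 4-month libraries in the PH, at 2096 to 2780 and 1563 to 2496. With the mean of the p53 target list, *Btg2* had an r of 0.63 in the PH (rho 0.70, and r 0.51 without the 2 farthest libraries). In the POA its r with the p53 target list was -0.44, or -0.06 with group means alone removed.

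**Figure D5:**
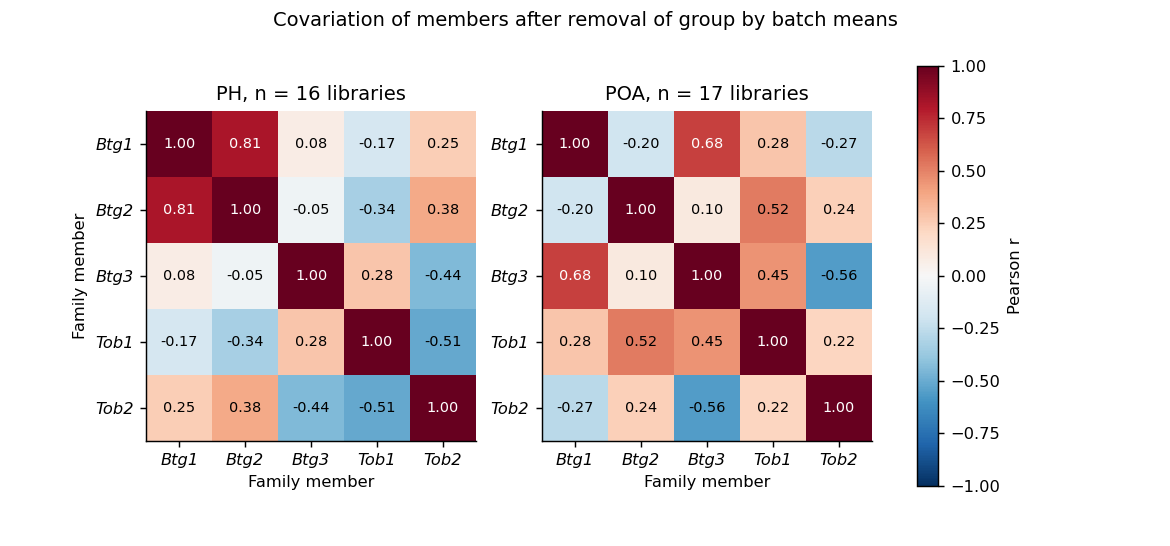
Pearson r between family members over the libraries of the PH (left, n = 16) and the POA (right, n = 17), after the mean of each group within each batch was removed, with color and numbers giving r. *Btg1* and *Btg2* have an r of 0.81 in the PH, against -0.20 in the POA.

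Of 15883 protein-coding genes compared in the same way, those most like *Btg2* in both regions, ranked by the lower of the 2 r values, were *Dapk1* (0.75), *Foxk1* (0.69), *A4galt* (0.67), *Tbl2* (0.65) and *Podn* (0.63). Without 14-day replicate 5 the PH r was 0.62 for *Dapk1*, 0.49 for *Foxk1*, 0.58 for *A4galt*, 0.40 for *Tbl2* and 0.64 for *Podn*. The genes most like *Tob1* were *Lrrc49* (0.74), *Arcn1* (0.73), *Lactb* (0.73), *Cdh11* (0.71) and *Cul3* (0.71). *Btg1* was closest to *Cd2bp2* (0.82), *Vopp1*, *Prdx1*, *Htr1a* and *Epb41l1* (0.77), and *Btg3* to *Zfp617* (0.85), *Maip1*, *Selenof*, *Emc7* and *Crls1* (0.84). For *Tob2* the list was *Nectin2* (0.82), *Fhip1b* (0.82), *Aatk* (0.79), *Reep2* (0.79) and *Brat1* (0.78), and without 14-day replicate 5 the PH r fell to 0.34, 0.67, 0.36, 0.08 and 0.17 in that order. All these genes were picked as the highest of 15883 over few libraries. Whether their r values exceed what such a pick gives by chance was not tested.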

How the data were processed

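RNA from dissected PH and POA was made into stranded mRNA libraries and sequenced. Per the study's methods and the submitters' processing notes, the authors pseudoaligned reads with kallisto to build mm39 and imported the estimates into DESeq2. The deposited table gives 1 signal value per gene and library, which the authors had normalized and which is never below 9.94. The values are not whole numbers and the step that lifted them above 0 is not given in the sources used here, so no count test was run and read depth is unknown. Of 42824 rows, 1259 without a gene name were left out.

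Log2 of the deposited signal, with no pseudocount, was tested with limma 3.58.1 in R 4.3.3 (trend, robust) within each region, with 3 groups and SV1 as covariate after the study's methods. Genes entered when they reached 2 times the floor of 22.1 in at least 4 PH or 5 POA libraries. Calls had a Benjamini-Hochberg adjusted *P* under 0.05. The floor is where genes without signal pile up. Single PH values were also compared by two-sided exact permutation of libraries without a covariate, overall and within batches. The 15 tests are reported unadjusted beside limma's *P* over all genes. The scripts were tested on simulated data. Labels do not name separate mice, so *P* values measure the spread between libraries, which may be partly technical. Members and gene lists were chosen with earlier results of these data known. Named genes are the members, preset partners and context genes, every list gene called, and the 5 genes most like each member. Alternatives were the batch or no covariate, both together, a replicate block, other filters, a pseudocount of 50, no variance trend, single batches, the compared groups alone, and leaving out each library. Leaving libraries out of the permutation tests, and the 2 farthest from the correlations, were chosen after seeing the data.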

Additional observations from a re-analysis of the deposited data

Results flagged for a closer look

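One of the 30 sets of libraries formed by member, region and group held a library far from the rest of its group. *Btg3* in the PH had a deposited value of 839.95 in intact replicate 1, where the nearest intact library stood at 549. The gap was 0.849 of the range of the 4 libraries, against a critical value of 0.829. Chance alone gives such a gap in about 1 of 20 groups. The cause was not tested.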

How the results depend on the processing

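In the POA the log2 fold changes of members moved by less than the spread between libraries under all 165 alternatives other than leaving out libraries. Signs of values near 0 still turned, with ranges of -0.128 to 0.105 (*Btg1*), -0.116 to 0.0015 (*Btg2*) and -0.082 to 0.059 (*Tob1*) for 14 days against intact, -0.0052 to 0.071 (*Tob2*) for 4 months against intact and -0.124 to 0.113 (*Btg3*) for 4 months against 14 days. The replicate block, with the numbers in the titles taken as pairs, gave 0 called members for POA 4 months against intact and 1 for POA 4 months against 14 days. Whether the numbers pair libraries could not be decided. With group means removed, 5 of 14 same-numbered PH pairs and 2 of 16 POA pairs had an r of at most 0.1. Among pairs of other numbers it was 50 of 70 and 48 of 80. On that measure 7 of 16 PH and 5 of 17 POA libraries correlated best with their own number. Most same-numbered libraries also share a batch. With group by batch means removed, same-numbered pairs had a median r of 0.09 in the PH and -0.03 in the POA. Pairs of other numbers had -0.03 and 0.01. For POA 4 months against intact, 1 member, *Btg2*, was called with no covariate, with no filter, with no trend or robust estimate and with only the compared groups, and 0 in batch 1 only or batch 2 only. For POA 4 months against 14 days, 1 was called with no covariate, and 0 in batch 1 only and in batch 2 only, which hold fewer libraries. Leaving out 1 library gave 1 to 2 called members in both comparisons, *Btg2* being called in every one, and for 4 months against 14 days it was 14-day replicate 2 or 3 whose absence gave 1. These POA counts of calls describe the libraries on which the family was chosen and are no test of the members.

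No PH member was called under any alternative, and reversals concern differences near 0. For PH 14 days against intact, *Btg2* was 0.046 and *Btg3* 0.0047 in batch 1, *Btg3* 0.34 and *Tob1* 0.012 in batch 2, and *Btg3* 0.17 with batch in place of SV1 and 0.11 with the replicate block. For PH 4 months against intact, *Btg1* was -0.068 and *Btg3* -0.048 in batch 1, and *Btg3* -0.00018 with batch in place of SV1. For PH 4 months against 14 days, *Btg3* was -0.17 with batch in place of SV1, -0.086 with the block, -0.053 in batch 1 and -0.29 in batch 2. Leaving out 1 library gave -0.17 to 0.14 for *Btg1*, -0.18 to 0.025 for *Btg2* and -0.081 to 0.090 for *Btg3* (14 days against intact), -0.062 to 0.21 for *Btg1* and -0.076 to 0.18 for *Btg3* (4 months against intact), and -0.049 to 0.22 for *Btg3* (4 months against 14 days). *Btg2* stayed at 0.47 to 0.68 and 0.54 to 0.69 for the 4-month comparisons of the PH. The cause was not tested.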
